A study of Homo sapiens with 12 samples.

Results

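Hsp70 and Hsp90 fold, hold and sort proteins in the cytosol, and neither works alone. The genes described here encode their co-chaperones: the Hsp40 or J-domain proteins DNAJB1, DNAJB4, DNAJA4, DNAJA1, DNAJB6 and DNAJB2, the Hsp70 nucleotide exchange factor BAG3, and the Hsp90 partners CHORDC1, AHSA1 and STIP1. They were picked by name, as 10 gene symbols, with earlier results of these data known. Each gene was read on the probe set annotated with its symbol alone, or on that with the highest mean signal where there was more than 1. In this way 9 of the 10 genes were measured among 18417 genes in all; AHSA1 had no probe set of that kind and was not analysed here. No filter on low signal was applied to these 9 genes.

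RNA came from SZ95 sebocytes, a line of immortalised cells of the human sebaceous gland, and was read on 12 Affymetrix arrays. The 4 groups were OLR1 siRNA with UVPAPC, OLR1 siRNA untreated, scramble siRNA with UVPAPC, and scramble siRNA untreated, with 3 replicate arrays in each (n = 3 for every group named here). UVPAPC is PAPC, a phosphatidylcholine carrying arachidonic acid, that was oxidised with ultraviolet light; it was given at 25 µg/ml, 24 h after lipofection of the siRNA. All cells had therefore been transfected, and the labels name no vehicle, no unoxidised PAPC and no untransfected cells, so that a response to UVPAPC means a difference from untreated cells. OLR1 encodes LOX-1, a scavenger receptor for oxidised low-density lipoprotein. The sources used here give neither the exposure time nor the siRNA sequences. They also do not say whether replicates were separate cultures, so a p-value covers the spread between these arrays, which may be technical.

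A J-domain protein binds a misfolded client, passes it to Hsp70 and, through its J domain, makes Hsp70 hydrolyse ATP and close on the client. A nucleotide exchange factor such as BAG3 then opens Hsp70 again, and STIP1 (also called HOP) holds Hsp70 and Hsp90 together so that a client can move on to Hsp90. Many of these genes are targets of heat shock factor 1, which binds heat shock elements: short inverted repeats of the letters GAA in the promoter. Oxidised phospholipids carry reactive groups that modify proteins, and the sebaceous gland is rich in lipids that can be oxidised.

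The letters of heat shock elements could be read in the promoter windows of RefSeq (build GRCh38.p14), which run from 250 bases before to 50 bases after each annotated start. All 9 measured genes matched, with 15 windows. The motifs searched were GAANNTTC and TTCNNGAA (2 units), each of which reads the same on both strands, and GAANNTTCNNGAA and TTCNNGAANNTTC (3 units), which contain the shorter ones. The stretches shown are those just before the start that carry most of these letters, and that of BAG3 for comparison; all run 5′ to 3′ on the gene's strand, end at position -1 before the start unless said otherwise, and have the motif letters in capitals. They are DNAJB1 (chr19:14518398-14518547, minus strand, the second of 3 annotated starts), DNAJA4 (chr15:78264412-78264561, plus strand, the second of 3), DNAJB4 (chr1:78004789-78004938, plus strand, the second of 2), CHORDC1 (chr11:90223050-90223199, minus strand), DNAJB6 (chr7:157336854-157337003, plus strand), BAG3 (chr10:119651230-119651379, plus strand) and DNAJA1 (chr9:33025273-33025297, plus strand, the first 25 bases after the start).
DNAJB1: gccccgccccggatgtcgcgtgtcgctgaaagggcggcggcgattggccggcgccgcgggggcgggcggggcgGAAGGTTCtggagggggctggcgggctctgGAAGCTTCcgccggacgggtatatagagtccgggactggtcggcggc
DNAJA4: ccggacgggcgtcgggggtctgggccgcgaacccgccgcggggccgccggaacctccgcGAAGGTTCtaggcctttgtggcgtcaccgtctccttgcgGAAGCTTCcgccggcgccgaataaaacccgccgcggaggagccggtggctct
DNAJB4: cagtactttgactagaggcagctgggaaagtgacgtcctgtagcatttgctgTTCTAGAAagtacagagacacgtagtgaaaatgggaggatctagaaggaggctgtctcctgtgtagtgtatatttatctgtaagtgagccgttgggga
CHORDC1: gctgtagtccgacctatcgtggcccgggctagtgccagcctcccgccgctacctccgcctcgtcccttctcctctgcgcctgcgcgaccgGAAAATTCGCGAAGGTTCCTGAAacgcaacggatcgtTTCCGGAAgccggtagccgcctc
DNAJB6: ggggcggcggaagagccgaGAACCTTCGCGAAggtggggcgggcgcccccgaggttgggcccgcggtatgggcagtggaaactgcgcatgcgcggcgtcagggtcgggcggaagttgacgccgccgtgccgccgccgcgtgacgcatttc
BAG3: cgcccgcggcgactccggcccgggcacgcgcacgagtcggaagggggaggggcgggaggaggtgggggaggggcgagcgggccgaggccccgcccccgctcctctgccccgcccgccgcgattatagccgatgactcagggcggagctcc
DNAJA1: gcgGAACTTTCCAGAAcgctcggtg

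The 2-unit letters stood in 8 of the 15 windows (53.3%), against 13.5% of all 35116 promoter windows in the table. Counted by gene, 7 of the 9 co-chaperones (77.8%) had at least 1 such window, against 16.2% of all 27305 genes. The 3-unit letters were in 3 of the 15 windows (20%), those of DNAJA1, DNAJB6 and CHORDC1, against 0.49% of all windows. CHORDC1 had the most matches, with 4 overlapping 2-unit matches from position -60 to -38 and further ones at -23 and -205. In DNAJB1 matches began at positions -77 and -47 of the second start, with 1 more after the third start, from 2 to 9. In DNAJA4 they began at -91 and -52, and in DNAJB4 at -98. In DNAJB6 the 3-unit match ran from -131 to -119, and in DNAJA1 it lay after the start, from 4 to 16, with a 2-unit match from -198 to -191. STIP1 had a 2-unit match after its second annotated start, from 14 to 21. The windows of BAG3 and DNAJB2 held none of these exact letters. The genes were picked by name and many are targets of heat shock factor 1, so these shares are no independent test. A gene with more windows also has more chances of a match, and windows per gene were not matched. These are matches of letters in a window and say nothing of binding in these cells.

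**Figure D1:**
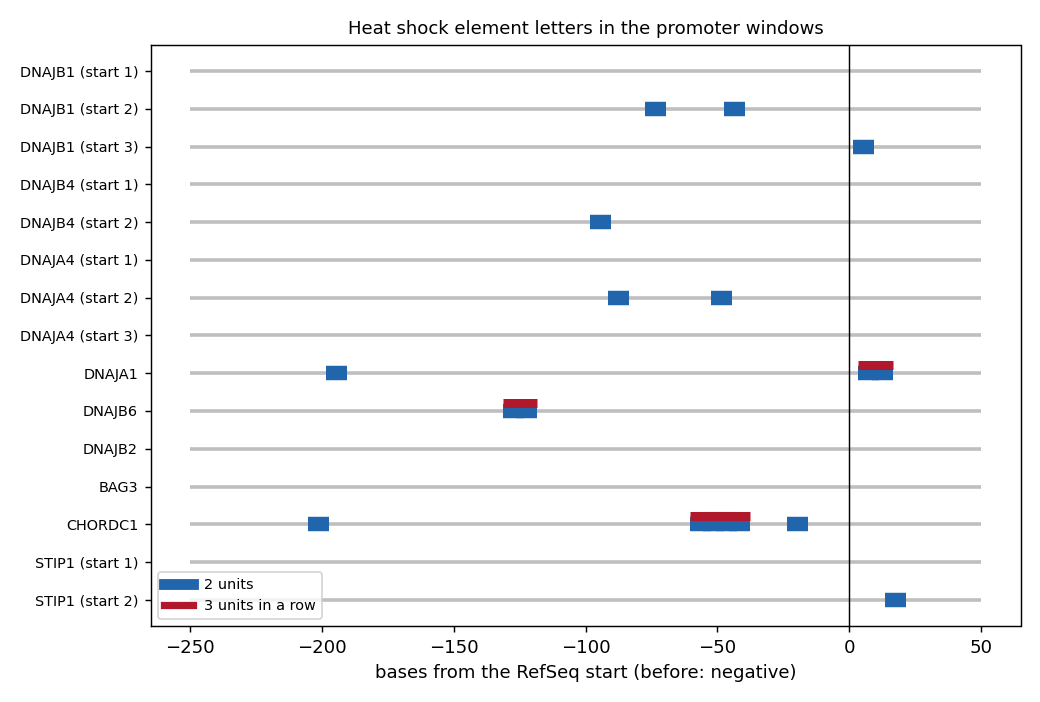
Each grey line is a RefSeq promoter window of a measured co-chaperone, with the position relative to the annotated start in bases on the horizontal axis; blue marks are 2-unit and red marks 3-unit heat shock element letters. Matches lie in 8 of 15 windows, and the windows of BAG3 and DNAJB2 have none.

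OLR1, the siRNA's target, was lower in every OLR1 siRNA array (log2 signals from 4.33 to 4.66) than in every scramble array (from 5.35 to 6.19). Its log2 fold change was -1.40 with UVPAPC (SE 0.180, limma adjusted p = 0.000162) and -1.19 untreated (SE 0.180, adjusted p = 0.000484). Array medians ran from 5.73 to 5.83. Of the markers of sebocytes, KRT7 averaged 11.22 over the 12 arrays, PPARG 8.10 and SCD 10.46, while the late sebocyte genes AWAT2 (4.03), MC5R (4.20) and ELOVL3 (3.73) had low signal. The defining markers of other cells, PTPRC for leukocytes (3.26), DCN for fibroblasts (3.09), MLANA for melanocytes (3.43) and PECAM1 for endothelium (4.03), were low as well. Other genes of the same marker lists had higher signal: CD68 (9.62) for leukocytes, MITF (8.41) for melanocytes, CDH5 (8.19) for endothelium and COL1A1 (7.15) for fibroblasts. The arrays' number limits the precision of all values.

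All 9 measured co-chaperones were higher with UVPAPC than untreated, with either siRNA. The genes were chosen with earlier results of these data known, so their counts beside those of all genes are no independent test. Under OLR1 siRNA, 9 of 9 passed the test (a limma adjusted p under 0.05) as rises, where 3.46% of all 18417 genes rose and 3.25% fell, and under scramble siRNA 9 of 9 did, where 2.67% of all genes rose and 4.64% fell. The median log2 fold change of the 9 was 1.24 under OLR1 siRNA and 0.98 under scramble siRNA, beside medians over all genes of -0.01 and -0.00. The rises ran from 1.36-fold (STIP1) to 5.08-fold (DNAJB1) under OLR1 siRNA and from 1.23-fold (STIP1) to 4.95-fold (DNAJB1) under scramble siRNA. For each of the 9 genes, under each siRNA, all 3 UVPAPC arrays lay above all 3 untreated arrays; 10.9% of all genes showed that under OLR1 siRNA and 10.1% under scramble siRNA.

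**Figure D2:**
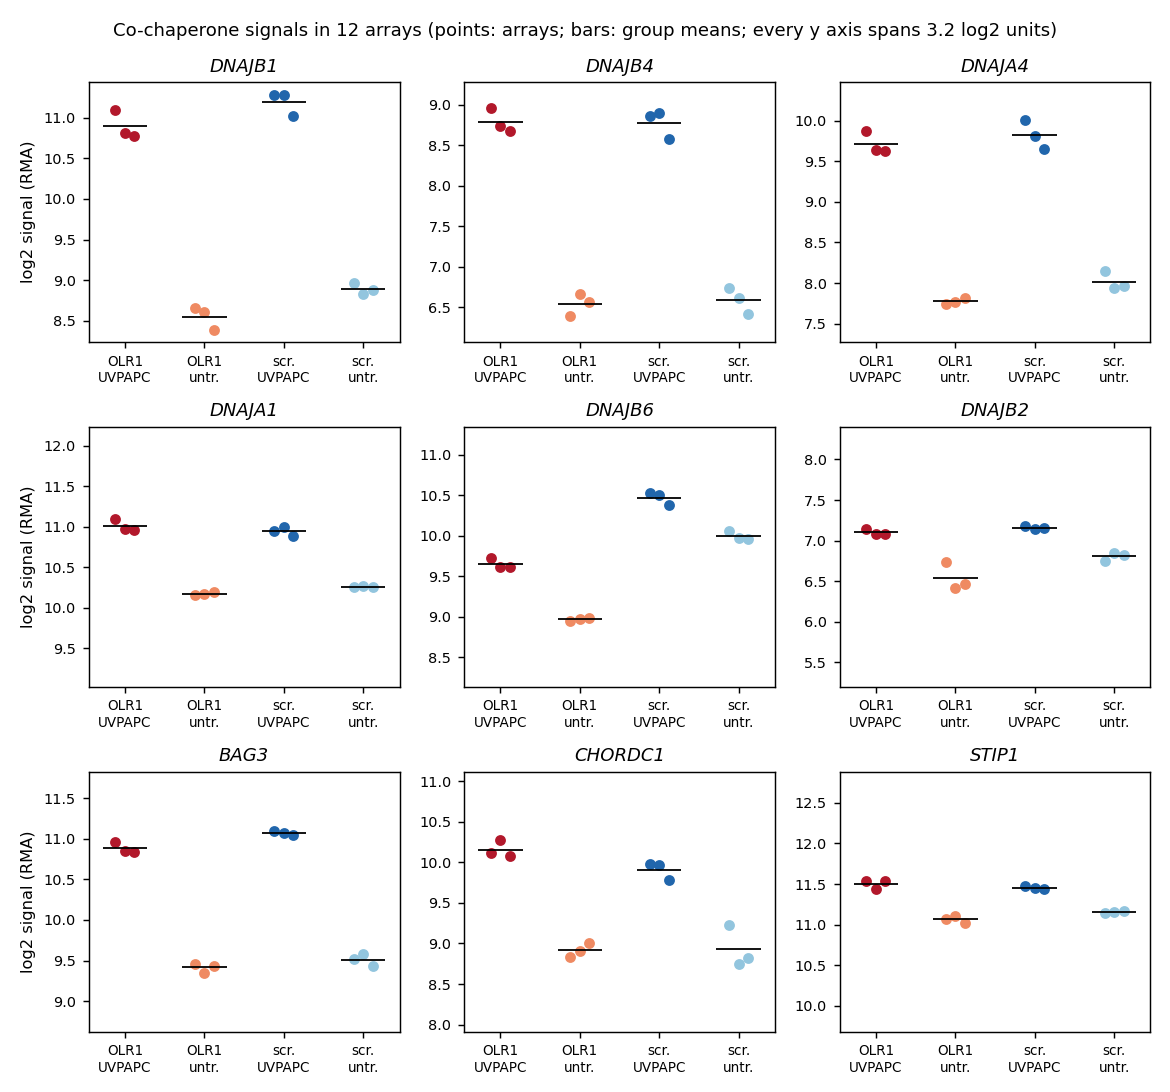
Log2 signal of each of the 9 co-chaperones (vertical axes, each spanning the same number of log2 units) in the 12 arrays; points are arrays, bars are group means, and "scr." and "untr." stand for scramble and untreated. In every panel the UVPAPC points lie above the untreated points of the same siRNA, and DNAJB6 also separates by siRNA.

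The rise was largest for DNAJB1, the main heat-inducible Hsp40 of human cells. With OLR1 siRNA its log2 signals were 11.09, 10.81 and 10.78 with UVPAPC, against 8.65, 8.61 and 8.39 untreated. With scramble siRNA they were 11.29, 11.29 and 11.02 with UVPAPC, against 8.97, 8.83 and 8.87 untreated. Every treated array thus lay far above every untreated one, and the third scramble UVPAPC array was the lowest of its group. The fitted log2 fold change was 2.35 under OLR1 siRNA (SE 0.0994, adjusted p = 4.29e-10) and 2.31 under scramble siRNA (SE 0.0994, adjusted p = 4.61e-10). Among the 18417 genes these were the 6th and the 5th highest log2 fold changes.

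DNAJB4, a close relative of DNAJB1 that is also found in muscle, changed by nearly as much. Its log2 signals with OLR1 siRNA were 8.96, 8.74 and 8.67 with UVPAPC and 6.39, 6.66 and 6.57 untreated. Under scramble siRNA the UVPAPC arrays had 8.86, 8.89 and 8.58 and the untreated arrays 6.73, 6.62 and 6.42. Treated arrays lay far above untreated ones, and the 2 siRNA groups overlapped at each treatment. The log2 fold change was 2.25 under OLR1 siRNA (4.75-fold, adjusted p = 1.57e-09) and 2.18 under scramble siRNA (4.54-fold, adjusted p = 2.83e-09), each with an SE of 0.107.

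DNAJA4 belongs to the class A Hsp40 proteins, which carry a zinc-binding region beside the J domain. In OLR1 siRNA cells its log2 signals were 9.87, 9.64 and 9.63 with UVPAPC, against 7.74, 7.77 and 7.82 untreated. In scramble cells they were 10.005, 9.81 and 9.65 with UVPAPC, against 8.15, 7.94 and 7.96 untreated. The gap between treated and untreated arrays exceeded the range within any group several times over. The log2 fold change was 1.94 under OLR1 siRNA (3.83-fold, SE 0.0937, adjusted p = 1.76e-09) and 1.80 under scramble siRNA (3.49-fold, adjusted p = 5.79e-09). DNAJB4 and DNAJA4 had the 7th and 9th highest log2 fold changes of all genes under either siRNA.

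The other class A protein, DNAJA1, is an abundant Hsp40 that carries a farnesyl lipid anchor. UVPAPC arrays had log2 signals of 11.10, 10.97 and 10.97 with OLR1 siRNA, against 10.15, 10.17 and 10.20 in the untreated ones. With scramble siRNA the values were 10.95, 11.00 and 10.89 with UVPAPC, against 10.26, 10.27 and 10.25 untreated. The untreated arrays of each siRNA lay very close together, and all treated arrays stood above them. DNAJA1 rose by a log2 fold change of 0.83 under OLR1 siRNA (1.78-fold, SE 0.0633, adjusted p = 4.69e-07) and 0.69 under scramble siRNA (1.61-fold, adjusted p = 4.63e-06).

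DNAJB6 is an Hsp40 best known for keeping polyglutamine proteins from aggregating. Its log2 signals under OLR1 siRNA were 9.73, 9.61 and 9.61 with UVPAPC, against 8.94, 8.97 and 8.99 untreated. Under scramble siRNA they were 10.53, 10.50 and 10.37 with UVPAPC, against 10.06, 9.97 and 9.96 untreated. The 4 groups did not overlap at all: the OLR1 siRNA arrays with UVPAPC stayed below even the untreated scramble arrays. UVPAPC raised DNAJB6 by 0.68 under OLR1 siRNA (1.60-fold, SE 0.0668, adjusted p = 8.45e-06) and by 0.47 under scramble siRNA (1.39-fold, adjusted p = 0.000289).

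DNAJB2 (HSJ1), which in neurons passes clients to the proteasome through its ubiquitin-binding motifs, moved least among the 6 Hsp40 genes. With OLR1 siRNA it had 7.15, 7.09 and 7.09 with UVPAPC, against 6.73, 6.41 and 6.46 untreated. With scramble siRNA it had 7.18, 7.14 and 7.15 with UVPAPC, against 6.75, 6.85 and 6.82 untreated. The UVPAPC arrays lay close together whichever siRNA was used, and the first untreated OLR1 array stood above the other two of its group. The log2 fold change was 0.57 under OLR1 siRNA (1.49-fold, SE 0.0786, adjusted p = 0.00023) and 0.35 under scramble siRNA (1.28-fold, adjusted p = 0.0107). Without the first untreated scramble array the scramble response was 0.32 and missed the threshold (adjusted p = 0.0547).

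BAG3 exchanges the nucleotide of Hsp70 and steers its clients to autophagy. Its log2 signals in OLR1 siRNA cells were 10.96, 10.85 and 10.84 with UVPAPC and 9.46, 9.35 and 9.44 untreated. In scramble cells they were 11.09, 11.08 and 11.05 with UVPAPC and 9.51, 9.58 and 9.43 untreated. Within each group the arrays lay close together, and the treated arrays stood well clear of the untreated ones. BAG3 rose by 1.47 under OLR1 siRNA (2.77-fold, SE 0.0665, adjusted p = 9.81e-10) and by 1.56 under scramble siRNA (2.95-fold, adjusted p = 4.61e-10). It ranked 11th and 10th among the log2 fold changes of all genes, without any of the exact heat shock element letters in the promoter window shown above.

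CHORDC1 (also called morgana or CHP-1) binds zinc through its CHORD domains and acts with Hsp90. With OLR1 siRNA its log2 signals were 10.12, 10.27 and 10.08 with UVPAPC, against 8.84, 8.91 and 9.01 untreated. With scramble siRNA they were 9.98, 9.97 and 9.78 with UVPAPC, against 9.23, 8.75 and 8.82 untreated. The first untreated scramble array stood above the other two, and still below every treated array. The log2 fold change was 1.24 under OLR1 siRNA (2.35-fold, SE 0.107, adjusted p = 2.13e-06) and 0.98 under scramble siRNA (1.97-fold, adjusted p = 2.72e-05), the 22nd and 26th highest of all genes. CHORDC1 is the gene with the most heat shock element letters among the 9.

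STIP1, the adaptor between Hsp70 and Hsp90, had the smallest rise. UVPAPC arrays had 11.53, 11.44 and 11.54 under OLR1 siRNA, against 11.06, 11.10 and 11.02 in untreated arrays. Under scramble siRNA the UVPAPC arrays had 11.47, 11.45 and 11.44, against 11.14, 11.15 and 11.16 untreated. The treated and untreated arrays did not overlap, and the scramble groups were the tightest. STIP1 rose by 0.44 under OLR1 siRNA (1.36-fold, SE 0.0603, adjusted p = 0.000228) and by 0.30 under scramble siRNA (1.23-fold, adjusted p = 0.00477).

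**Figure D3:**
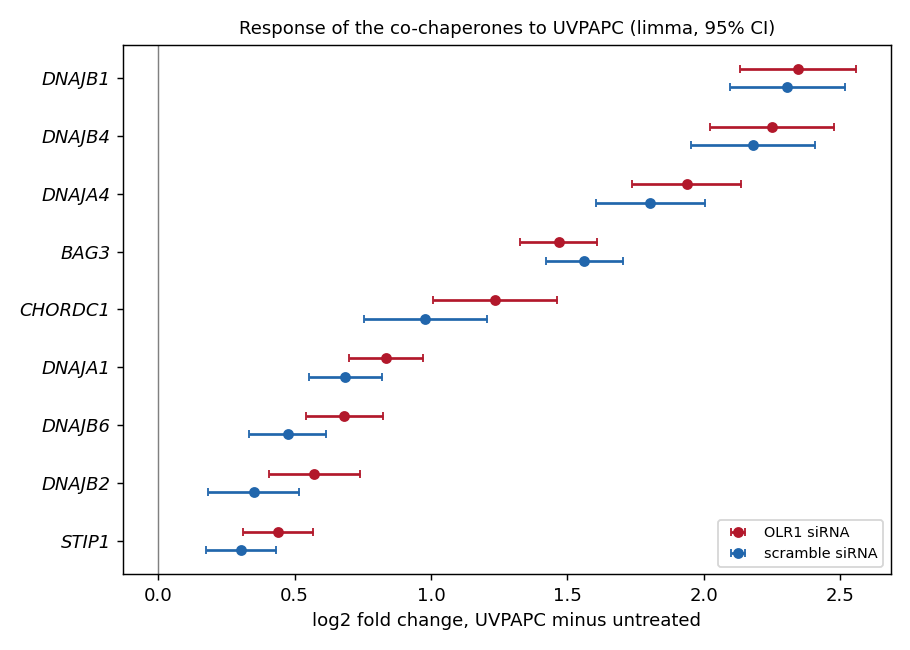
UVPAPC response of the 9 co-chaperones: log2 fold change of UVPAPC over untreated arrays (horizontal axis) with 95% confidence intervals of the limma fit, under OLR1 siRNA (red) and scramble siRNA (blue). All intervals lie above 0; values run from 0.30 for STIP1 to 2.35 for DNAJB1, and the red and blue intervals of each gene overlap.

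Set side by side, the log2 fold changes fell into the same order of genes under both siRNAs, from DNAJB1, DNAJB4, DNAJA4, BAG3 and CHORDC1 to DNAJA1, DNAJB6, DNAJB2 and STIP1. That order is one of differences, each within its own probe set, and does not compare levels of different genes. Neighbours in it were not always apart: the 95% confidence intervals of DNAJB1 (2.13 to 2.56 under OLR1 siRNA) and DNAJB4 (2.02 to 2.48) overlapped, as did those of DNAJB6 (0.54 to 0.82) and DNAJB2 (0.41 to 0.74). BAG3 (1.33 to 1.61) lay below DNAJA4 (1.74 to 2.14) without overlap.

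Whether OLR1 siRNA altered the UVPAPC response itself was tested as the difference of the 2 responses, OLR1 minus scramble. None of the 9 co-chaperones passed, nor did any of the 18417 genes (0% called by limma; 1004 genes, 5.45%, had an unadjusted p under 0.05). The difference was positive for 8 of the 9 co-chaperones and negative for BAG3 (-0.09, 95% CI -0.29 to 0.11). It was 0.26 for CHORDC1 (95% CI -0.06 to 0.58), 0.22 for DNAJB2 (-0.01 to 0.46) and 0.21 for DNAJB6 (0.01 to 0.41). DNAJB6 was the only one of the 9 with an unadjusted p under 0.05 (0.0429; limma adjusted p = 0.904). For DNAJB1 the interval ran from -0.26 to 0.34, for DNAJB4 from -0.25 to 0.39 and for DNAJA4 from -0.15 to 0.41. For DNAJA1 it ran from -0.04 to 0.34 and for STIP1 from -0.05 to 0.32. The intervals do not show that the responses were alike.

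OLR1 siRNA itself changed the level of 1 co-chaperone in both treatments. Whether that change came through the loss of OLR1 or through another effect of the siRNA was not tested. DNAJB6 was 1.76-fold lower with OLR1 siRNA than with scramble siRNA in UVPAPC-treated cells (log2 fold change -0.82, SE 0.0668, adjusted p = 2.68e-06) and 2.04-fold lower in untreated cells (-1.03, SE 0.0668, adjusted p = 1.69e-07). These were the 21st lowest log2 fold changes of all genes in each comparison, while OLR1 itself was the 3rd and the 9th lowest. With UVPAPC DNAJB6 was the 1 of 9 co-chaperones that fell, where 4.56% of all genes fell and 7.94% rose. In untreated cells 3 of 9 fell, where 4.42% of all genes fell and 5.29% rose. The median log2 fold change of the 9 was -0.05 with UVPAPC and -0.10 untreated.

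A second probe set of DNAJB6 (8137627), which was not used in the counts, separated the groups in the same directions. Its log2 signals with UVPAPC were 8.16, 8.39 and 8.21 under OLR1 siRNA, against 8.66, 8.85 and 8.65 under scramble siRNA. Untreated, they were 7.41, 7.35 and 7.42 under OLR1 siRNA, against 8.10, 8.11 and 8.25 under scramble siRNA. The siRNA groups did not overlap at either treatment, but here OLR1 siRNA arrays with UVPAPC reached the level of untreated scramble arrays, which the first probe set did not show. The OLR1 siRNA effect was -0.46 with UVPAPC (limma adjusted p = 0.00822 over all table entries) and -0.76 untreated (adjusted p = 0.000397), smaller than on the first probe set. Its UVPAPC response was 0.86 under OLR1 siRNA (adjusted p = 0.00015) and 0.57 under scramble siRNA (adjusted p = 0.00261). DNAJB6 has 8 named pseudogenes in the annotation, DNAJA1 6, CHORDC1 4, STIP1 3 and DNAJB1 2, and whether their transcripts share probe signal was not tested.

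The other effects of OLR1 siRNA on the co-chaperones were small. DNAJB1 fell by 0.34 on the log2 scale in untreated cells (SE 0.0994, adjusted p = 0.0412), while its change with UVPAPC was -0.30 (adjusted p = 0.0592). The untreated arrays of the 2 siRNAs did not overlap for DNAJB1, and the treated ones did. In treated cells DNAJB1 passed as a fall in 9 of 22 alternative settings and BAG3 in 5 of 22. DNAJB2 fell by 0.27 in untreated cells (SE 0.0786, adjusted p = 0.0389), with -0.05 in treated cells (adjusted p = 0.72). Both untreated calls were lost when an array was left out: that of DNAJB1 without any of the 3 untreated scramble arrays or without the second or the third untreated OLR1 array (adjusted p from 0.0709 to 0.157), and that of DNAJB2 without the same arrays, the first scramble UVPAPC array or the third OLR1 UVPAPC array (adjusted p up to 0.177).

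BAG3 lay lower in all 3 OLR1 siRNA arrays with UVPAPC than in all 3 scramble ones, at a log2 fold change of -0.19 that did not pass the test (adjusted p = 0.075). CHORDC1 lay higher in all 3, at 0.24 (adjusted p = 0.149). With UVPAPC the arrays of the 2 siRNAs were thus apart downward for 2 of the 9 co-chaperones (DNAJB6 and BAG3), as for 14.1% of all genes, and apart upward for 1 of 9, as for 16.6%. Untreated, they were apart downward for 6 of 9, where 13.7% of all genes were: DNAJB1, DNAJA4, DNAJA1, DNAJB6, DNAJB2 and STIP1. DNAJA4 had -0.24 there (adjusted p = 0.126; -0.28 and adjusted p = 0.0449 after cyclic loess), and DNAJA1 and STIP1 had -0.09 each. With UVPAPC DNAJA4 had -0.11, DNAJA1 0.06 and STIP1 0.05, none past the threshold. The values for DNAJB4 in both treatments and for CHORDC1 and BAG3 untreated ran from -0.10 to 0.01.

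**Figure D4:**
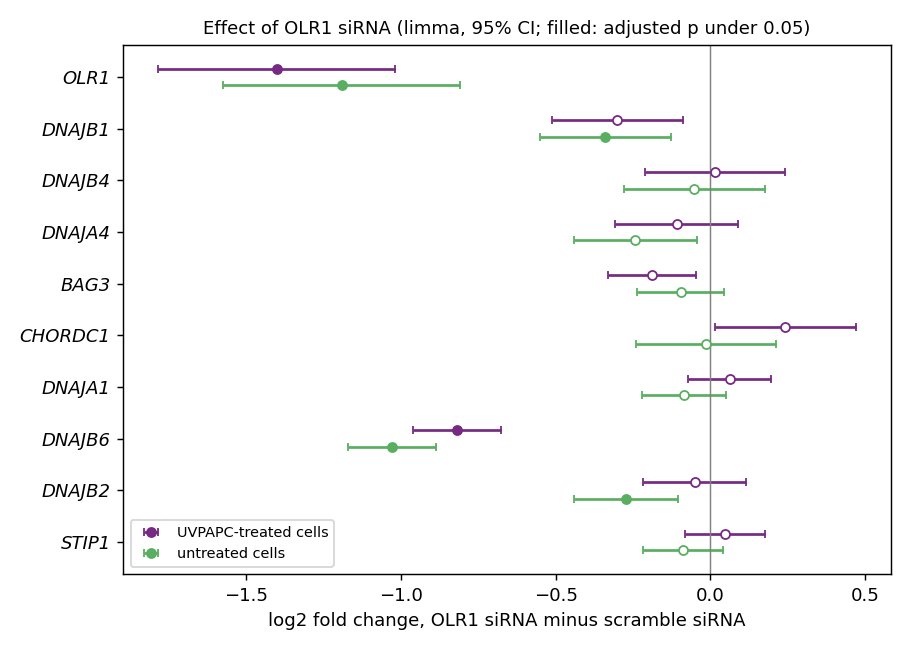
Effect of OLR1 siRNA on OLR1 and the 9 co-chaperones: log2 fold change of OLR1 over scramble siRNA (horizontal axis) with 95% confidence intervals of the limma fit, in UVPAPC-treated (purple) and untreated cells (green); filled points passed an adjusted p of 0.05. DNAJB6 is the co-chaperone farthest from 0, at -0.82 and -1.03, and OLR1 itself lies at -1.40 and -1.19.

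Summed over a list, the linear signal of leukocyte, endothelial and melanocyte markers was higher with OLR1 siRNA in both treatments. In each list 1 gene passed the test (CD68, CDH5 and MITF), and it had the highest signal of its list. With UVPAPC the log2 fold change was positive for 3 of 6 leukocyte, 1 of 6 endothelial and 1 of 5 melanocyte markers. Untreated, it was positive for 4, 2 and 3 of them in the same order. A higher sum thus does not mean that most markers of a list were higher. The summed linear signal of 6 leukocyte markers was 977 to 1057 with UVPAPC and 962 to 1067 untreated under OLR1 siRNA, against 707 to 818 with UVPAPC and 784 to 814 untreated under scramble siRNA. The sum of 6 endothelial markers was 462 to 547 under OLR1 siRNA and 381 to 409 under scramble siRNA, and that of 5 melanocyte markers was 428 to 472 under OLR1 siRNA and 350 to 402 under scramble siRNA. The list medians were -0.02 (leukocyte), -0.05 (endothelial) and -0.23 (melanocyte) for OLR1 over scramble siRNA with UVPAPC, and 0.02, -0.07 and 0.01 in the same order untreated. The sum of 8 fibroblast markers overlapped between the siRNAs at both treatments, with 308 to 365 under OLR1 siRNA and 324 to 364 under scramble siRNA. That of 6 keratinocyte differentiation markers was 203 to 219 under OLR1 siRNA and 216 to 228 under scramble siRNA, lower in each OLR1 siRNA array with UVPAPC and overlapping untreated; no gene of these lists passed. The defining markers named above were low, while CD68, CDH5 and MITF had higher signal. The part of other cell types in the fall of DNAJB6, DNAJB1 and DNAJB2 was not tested. In bulk RNA fewer cells of a type and less RNA per cell cannot be told apart. The sum of 17 sebocyte markers was 8783 to 9334 (OLR1 UVPAPC), 8851 to 9376 (OLR1 untreated), 8986 to 9640 (scramble UVPAPC) and 9745 to 10234 (scramble untreated).

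The other genes of the chaperone system were followed in lists chosen by function. Of 41 other J-domain genes, 4 rose with UVPAPC under OLR1 siRNA and 37 did not pass; under scramble siRNA 3 rose and 1 fell. Their median log2 fold change was 0.01 under OLR1 siRNA and -0.03 under scramble siRNA (medians over all genes -0.01 and -0.00). DNAJB9, an Hsp40 of the endoplasmic reticulum, rose by 0.44 under OLR1 siRNA (adjusted p = 0.0306) and 0.49 under scramble siRNA (adjusted p = 0.0151). DNAJC7, which has TPR repeats and binds both Hsp70 and Hsp90, rose by 0.30 and 0.26, and the ribosome-bound DNAJC2 by 0.26 and 0.27. DNAJC6 (auxilin) passed under OLR1 siRNA with a rise of 0.31, and DNAJC19, of the mitochondrial import motor, passed under scramble siRNA and fell by 0.32. DNAJC7 under OLR1 siRNA (adjusted p = 0.00795) was kept in all 22 alternatives, and the other calls of this list were not. With an array left out, 1 to 4 rose under OLR1 siRNA and 0 to 3 under scramble siRNA, the lowest without the first OLR1 array of either treatment and without the third untreated or the first or second UVPAPC scramble array.

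Among 16 other Hsp70 co-chaperones 6 rose under OLR1 siRNA and 6 under scramble siRNA, and none fell; the medians were 0.12 and 0.11. The largest rises were those of Hsp110 proteins, which exchange the nucleotide of Hsp70 and, with J-domain proteins, pull apart aggregates. HSPA4L rose by 1.45 under OLR1 siRNA (SE 0.0761, adjusted p = 5.56e-09) and 1.24 under scramble siRNA (adjusted p = 4.82e-08). HSPH1 rose by 1.15 (SE 0.0722, adjusted p = 5.84e-08) and 1.12 (adjusted p = 8.73e-08), and HSPA4 by 0.55 and 0.45. BAG2, another BAG-domain exchange factor, rose by 0.71 and 0.69, BAG1 by 0.37 and 0.30, and SGTB, a TPR protein, by 0.42 and 0.30. The call of SGTB under scramble siRNA (adjusted p = 0.0465) was lost without any 1 of the 6 scramble arrays and without 3 of the OLR1 siRNA arrays, with an adjusted p of up to 0.177. BAG4, BAG5 and BAG6 did not pass in either response, so that BAG3 was the BAG gene with the largest log2 fold change.

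Of 27 other Hsp90 co-chaperones, 6 rose under OLR1 siRNA and 6 under scramble siRNA, none fell, and the medians were 0.13 and 0.08. CACYBP rose by 1.03 under OLR1 siRNA (SE 0.0794, adjusted p = 5.3e-07) and 0.57 under scramble siRNA (adjusted p = 0.000248); its difference of responses is among those that did not pass. PPID and FKBP4, immunophilins that dock on Hsp90 through TPR repeats, rose by 0.70 and 0.57 under OLR1 siRNA and by 0.60 and 0.48 under scramble siRNA. SUGT1 rose by 0.46 and 0.40, PTGES3 (p23, which stabilises the closed form of Hsp90) by 0.40 and 0.38, and NUDC by 0.27 and 0.25. The calls of NUDC were lost without either the second or the third untreated or the first or the third UVPAPC array of OLR1 siRNA (adjusted p up to 0.0862), and under scramble siRNA without the first or the third untreated or the second or the third UVPAPC array (adjusted p up to 0.127).

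Some of the chaperones that these proteins serve rose as well. Of 12 measured Hsp70 and Hsp90 genes, 8 rose under OLR1 siRNA and 6 under scramble siRNA, with medians of 0.42 and 0.25; HSPA1A and HSPA1B were not analysed here. HSPA6, a strictly inducible Hsp70, rose by 4.40 under OLR1 siRNA (SE 0.121, adjusted p = 2.86e-12) and 4.20 under scramble siRNA (adjusted p = 5.87e-12), beyond any co-chaperone. HSP90AA1, the inducible cytosolic Hsp90, rose by 0.65 and 0.59, and the constitutive HSP90AB1 and HSPA8 by 0.42 each under OLR1 siRNA and by 0.27 and 0.24 under scramble siRNA. HSPA13 rose by 0.57 under OLR1 siRNA (limma adjusted p = 0.00166), with 0.30 under scramble siRNA (adjusted p = 0.0796). HSPA2 rose by 0.45 under OLR1 siRNA and 0.37 under scramble siRNA. HSPA1L rose by 0.59 and 0.75 (the first call was lost without the second untreated or the first UVPAPC array of OLR1 siRNA, at an adjusted p of up to 0.0539), and near-identical Hsp70 genes may share probe signal. The count of rises under scramble siRNA was 3 without its second UVPAPC array, when HSPA2, HSPA8 and HSP90AB1 no longer passed. Of 4 measured genes of heat shock factors and their regulators, none passed the limma test in either UVPAPC response. At an unadjusted limma p under 0.05, 0 passed under OLR1 siRNA and 1 under scramble siRNA. The share of all genes at that level was not counted. HSF1 was at 0.06 under OLR1 siRNA and 0.03 under scramble siRNA.

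**Figure D5:**
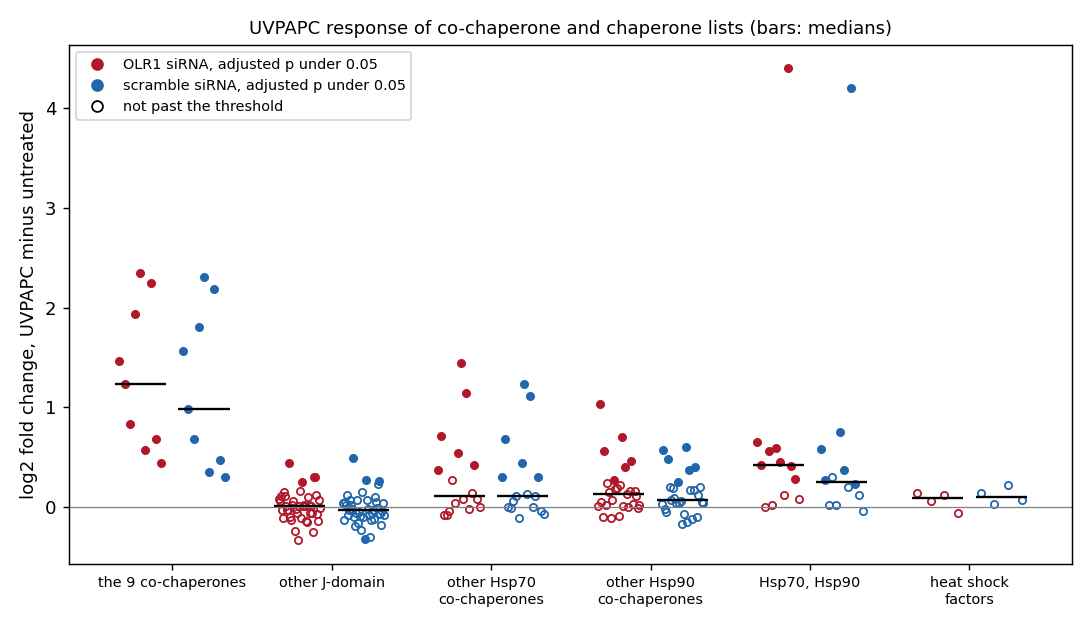
UVPAPC response (log2 fold change, vertical axis) of every measured gene of the co-chaperone and chaperone lists, under OLR1 siRNA (red) and scramble siRNA (blue); filled points passed an adjusted p of 0.05 and bars are list medians. The 9 co-chaperones have medians of 1.24 and 0.98, the other J-domain genes 0.01 and -0.03, and HSPA6 stands alone at 4.40 and 4.20. All lists were chosen with earlier results of these data known.

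OLR1 siRNA changed some of these other genes as well. Over the 9 co-chaperones and all these lists, 109 genes were measured. With UVPAPC 14 of them rose and 6 fell, where 7.94% of all genes rose and 4.56% fell. Untreated, 9 rose and 12 fell, where 5.29% of all genes rose and 4.42% fell. The rises included BAG2 (0.29 with UVPAPC and 0.27 untreated), HSPA13 (0.33 with UVPAPC) and PPID (0.26 with UVPAPC). No such call of BAG2, HSPA13 or PPID was kept in every alternative. HSPA6 fell by 0.50 with UVPAPC (adjusted p = 0.0139) and by 0.70 untreated (adjusted p = 0.0015). FKBP4 fell by 0.27 with UVPAPC (adjusted p = 0.0212) and by 0.35 untreated (adjusted p = 0.00447), and BAG1 by 0.22 (adjusted p = 0.0296) and 0.29 (adjusted p = 0.00741). With UVPAPC the call of HSPA6 was lost without the first scramble or the third OLR1 UVPAPC array (adjusted p up to 0.0688 over its alternatives), that of FKBP4 without the first or the second scramble or the second or the third OLR1 UVPAPC array (up to 0.079), and that of BAG1 without any 1 of the 6 UVPAPC arrays (up to 0.0808). CACYBP fell by 0.55 untreated (adjusted p = 0.000347), with -0.09 in UVPAPC-treated cells (adjusted p = 0.524), and HSPA9, the mitochondrial Hsp70, fell by 0.36 untreated (adjusted p = 0.00272), with -0.20 in treated cells (adjusted p = 0.0657, past the threshold in 6 of 22 alternatives). PTGES3 rose by 0.34 with UVPAPC (adjusted p = 0.006) and by 0.32 untreated (adjusted p = 0.00963; 0.0525 without the third untreated scramble array). Among the 41 other J-domain genes 6 rose and none fell with UVPAPC by limma, and 4 rose and 2 fell untreated. With UVPAPC 10 of the 41 had an unadjusted limma p under 0.05, and the share of all genes at that level was not counted. With 1 array left out the count of rises was as low as 2 with UVPAPC, without the first OLR1 UVPAPC array, and as low as 2 untreated, without the second or the third untreated scramble array or the second untreated OLR1 array. No other J-domain gene passed with a fall the size of that of DNAJB6: the 2 that fell were DNAJB3 (-0.27) and DNAJB14 (-0.25), both in untreated cells.

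Genes outside these lists with profiles most like 4 of the co-chaperones were found by the root mean square distance over the 12 arrays, on log2 signals from which the mean of the untreated scramble arrays had been taken off. For DNAJB1 they were SLC7A11 (distance 0.176), ZFAND2A (0.387) and NMRAL2P (0.432). SLC7A11 rose by 2.58 under OLR1 siRNA and 2.20 under scramble siRNA. For BAG3 they were SRXN1 (0.164), DEDD2 (0.203) and EID3 (0.228). For STIP1 they were CYB5R1 (0.0434), OSBPL1A (0.0519) and FGFR1 (0.0593), and for DNAJB2 FAM219A (0.0685), KCNAB2 (0.0977) and KIF3C (0.102). The distances are smaller where the co-chaperone itself moved less, since more genes lie near a small change, and they cannot be compared between the 4 genes.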

How the data were processed

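The deposited values were log2 signals per probe set, normalised by the authors with RMA. Per the submitters' processing notes, the software was Affymetrix Expression Console 1.3.1.187. The sources used here give no RMA settings or probe positions. RMA compresses large fold changes. Per the labels, 100 ng of RNA were amplified and biotin-labelled. Of 33297 entries, 19460 carried 1 gene symbol in GEO's platform annotation, which can be old, 1754 several and 12083 none; current symbols, matched through Entrez numbers for 19429, changed 0. This left 18417 genes (highest mean where a gene had several probe sets, as 769 did). A limma model (version 3.58.1, R 4.3.3) gave each of the 4 groups a mean over all 12 arrays (lmFit, default eBayes; 8 residual and 7.66 prior degrees of freedom), two-sided, with Benjamini-Hochberg adjustment over all genes of a comparison at 0.05. The fit was checked on simulated data. The co-chaperones, the other lists and the rule for the genes named (from the lists, those past the threshold in a UVPAPC response, the 5 with the largest change first; for profiles, the 3 closest genes) were chosen with earlier results of these data known; genes of the lists given for OLR1 siRNA effects were named after their values were seen. Replicate numbers were not used to pair the arrays in this model, since no label says that they mark a shared culture or day. Figures used matplotlib 3.10.9.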

Additional observations from a re-analysis of the deposited data

How the results depend on the processing

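Each comparison of a pair of groups was run under 22 alternatives. They were trend and robust eBayes, array weights, only genes above the median mean signal, averaged probe sets of a gene and all entries of the table. The rest were centring of arrays on medians, repeated quantile normalization, cyclic loess, the arrays of the comparison alone and the replicate block. Each of the 12 arrays was also left out in turn. In these, 39 of the 45 values of the co-chaperones kept their side of the threshold, and no called value reversed. Values that were not called could change sign, as the OLR1 siRNA effect on CHORDC1 untreated did (-0.10 to 0.13). In the UVPAPC responses 17 of 18 values kept their side of the threshold, the exception being DNAJB2 under scramble siRNA. The count of co-chaperones called was 8 to 9 under scramble siRNA with an array left out. Of the 46 calls of other list genes in these responses, 31 were kept in every alternative. The OLR1 siRNA effect with UVPAPC called 3 co-chaperones in place of 1 under trend and robust eBayes, array weights, genes above the median mean signal, repeated quantile normalization and cyclic loess, and 2 with the replicate block; DNAJB1 (adjusted p from 0.0075 to 0.186 over its alternatives) and BAG3 (0.00678 to 0.191) were the genes added, BAG3 not with the block. With an array left out it called 1 to 2; DNAJB1 was added without the third scramble UVPAPC array (adjusted p = 0.034), which had the lowest array weight (0.444), without the third untreated OLR1 array (0.0489) or without the first OLR1 UVPAPC array (0.0257). Untreated, the effect called 1 in place of 3 over all table entries or after centring the arrays, 4 with cyclic loess, which added DNAJA4 (-0.28, adjusted p = 0.0449), and 1 to 3 with an array left out. Over all genes, leaving out an array gave 868 to 1340 calls in the scramble response (1347 with all arrays), 1101 to 2055 in the OLR1 siRNA effect untreated (1789) and 1267 to 2254 with UVPAPC (2302); the cause was not tested, beyond fewer arrays. The difference of responses called 0 co-chaperones in every alternative run. No label says that replicate numbers mark a shared culture or day. Residual correlations between arrays of different groups ran from -0.22 to 0.26 over 18 same-numbered pairs. They ran from -0.26 to 0.27 over 36 pairs with different numbers, and 3 of 12 arrays correlated best with an array of their own number. With 3 arrays a group these values cannot show whether the arrays were paired. The block changed no other call of a co-chaperone. Signal near background was not assessed, and 3 arrays a group limit the precision.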
